A study of Rattus norvegicus with 24 samples.

Results

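The 10 genes of the transforming growth factor beta (TGF-beta) system described here were followed in the rat urethra after a simulated birth injury, namely the ligands Tgfb1, Tgfb2 and Tgfb3, the receptors Tgfbr1, Tgfbr2 and Tgfbr3, and the latent TGF-beta binding proteins Ltbp1, Ltbp2, Ltbp3 and Ltbp4. They were taken from the table of normalized gene counts by gene symbol, and each symbol had 1 row, so 10 of 32883 genes are described. Female virgin Sprague-Dawley rats of 12 weeks underwent simulated vaginal delivery (SVD), a pudendal nerve crush with vaginal distension, and 1 h later received saline, MABsallo or MABsallo-VEGF into the aorta. MABsallo are mesoangioblasts, vessel-associated muscle progenitor cells grown from the hindlimb muscle of another rat, carrying a lentiviral CMV-driven eGFP and luciferase reporter and sorted for GFP. MABsallo-VEGF were transduced with a lentiviral SFFV-driven VEGF165 joined to a truncated CD34. The study also followed MABsallo-VEGF by bioluminescence in the rats, so the reporter is not taken as a difference between the cell types. The urethra was collected at 3d or 7d, giving 6 groups of 4 samples with the wild-type genotype or, for MABsallo-VEGF, with VEGF overexpression in the labels. All rats were injured, and no uninjured urethra was analysed here. Replicates 6 and 7 of MABsallo-VEGF at 7d carry the label recovery.

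TGF-beta is secreted as a latent complex in which the mature ligand stays enclosed by its own propeptide. The propeptides are tied by disulfide bonds to a latent TGF-beta binding protein, which stores the complex on fibrillin fibres in the matrix until integrins or proteases release it. Released ligand binds the kinase receptor encoded by Tgfbr2, which then recruits and phosphorylates the one encoded by Tgfbr1, and this passes the signal to SMAD2 and SMAD3. In healing connective tissue the pathway is known for driving fibroblasts to make collagen and contractile proteins.

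The count table rested on 2170695 to 10166052 reads per sample, and 1 read was worth 1.67 to 9.23 normalized counts. The reads were lower after MABsallo (2170695 to 4491900) and MABsallo-VEGF (3042531 to 4261098) than after saline (4851797 to 5249467) at 3d, with no overlap, and at 7d all groups had 5244129 reads or more. The part of depth in the results was not tested. Marker genes of smooth muscle, striated muscle and epithelium were read in all groups, with at most 2 of 7 epithelial and 0 of 6 smooth muscle markers at 0 in any sample. The summed epithelial markers were at 2081 in saline replicate 8 and at 3775 in MABsallo-VEGF replicate 2 at 3d, and between 32342 and 139749 in all other samples. Vegfa was at 619 to 1352 normalized counts in MABsallo-VEGF and at 1334 to 2262 in MABsallo at 3d; whether reads of the transgene are counted there is not given in the sources used here. The libraries of 2 samples stood apart on the first principal component (PC1, 70.7% of the variance of 500 genes). Saline replicate 6 at 3d was at 54.6 where the other saline samples at 3d were at -52.3, -14.9 and -6.43. MABsallo-VEGF replicate 4 at 3d was at 0.7 where the others were at 57.3, 74.4 and 75.2. Results at 3d are therefore given with all 24 samples and with the other 22. Saline replicate 8 at 3d was kept. It differed more from replicates 9 and 10 (chi-square per degree of freedom 79.2 and 83.6) than replicate 6 did (64.8 and 56.2). The saline library nearest the cell groups on PC1 was thus set aside and the furthest was kept. Since these libraries were set aside for their expression, groups without them are further apart by construction.

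Upstream sequences of the 5 members that passed the test at 3d in the fit of 22 samples are shown so that their start regions can be compared, in capitals where the GC box GGGCGG was found on either strand. They are the 250 bases before the annotated start in RefSeq on GRCr8, written 5′ to 3′ along the gene, and not in the Rnor6.0 build of the count table. All 10 members had an entry.
Tgfb3, lower at 3d, chr6:111456947-111457196 on the minus strand: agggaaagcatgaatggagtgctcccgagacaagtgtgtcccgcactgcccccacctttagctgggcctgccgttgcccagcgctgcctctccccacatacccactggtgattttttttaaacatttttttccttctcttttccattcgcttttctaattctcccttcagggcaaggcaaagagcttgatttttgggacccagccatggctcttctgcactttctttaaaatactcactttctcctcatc
Tgfbr2, higher at 3d, chr8:124761470-124761719 on the minus strand: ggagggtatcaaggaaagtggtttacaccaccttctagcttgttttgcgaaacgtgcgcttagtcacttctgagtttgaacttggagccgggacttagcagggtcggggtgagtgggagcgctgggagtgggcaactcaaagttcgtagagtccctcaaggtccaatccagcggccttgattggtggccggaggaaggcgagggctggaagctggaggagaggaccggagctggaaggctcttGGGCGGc
Tgfbr3, lower at 3d, chr14:2634044-2634293 on the plus strand: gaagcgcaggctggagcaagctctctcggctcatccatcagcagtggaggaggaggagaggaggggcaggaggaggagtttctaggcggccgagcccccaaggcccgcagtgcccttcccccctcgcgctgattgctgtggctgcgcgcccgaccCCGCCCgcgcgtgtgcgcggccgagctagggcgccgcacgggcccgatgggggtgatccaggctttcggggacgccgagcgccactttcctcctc
Ltbp3, lower at 3d, chr1:212458955-212459204 on the plus strand: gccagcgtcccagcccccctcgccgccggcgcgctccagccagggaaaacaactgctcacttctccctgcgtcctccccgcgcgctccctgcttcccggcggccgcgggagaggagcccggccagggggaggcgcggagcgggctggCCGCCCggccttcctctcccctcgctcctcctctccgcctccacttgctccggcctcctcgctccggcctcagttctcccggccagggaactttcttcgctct
Ltbp4, lower at 3d, chr1:91759808-91760057 on the minus strand: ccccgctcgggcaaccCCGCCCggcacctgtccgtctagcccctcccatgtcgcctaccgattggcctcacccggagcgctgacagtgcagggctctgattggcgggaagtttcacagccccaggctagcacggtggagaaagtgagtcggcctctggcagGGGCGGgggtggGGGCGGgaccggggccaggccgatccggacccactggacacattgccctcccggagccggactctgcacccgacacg

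The GC box was found 3 times before Ltbp4, once before each of Tgfbr2, Tgfbr3 and Ltbp3, and not in the window of Tgfb3. Among 33465 windows of this length 30.5% held it. GC content was 48.8% before Tgfb3, 58.0% before Tgfbr2, 70.4% before Ltbp4, 71.2% before Tgfbr3 and 74.0% before Ltbp3. The median over all windows was 51.2%. The cAMP response element TGACGTCA, held by 1.59% of windows, was found before Ltbp1 and no other member. None of the 10 windows held the AP-1 site TGANTCA (6.34% of windows), the TATA box TATAAA (12.9%), the SMAD box GTCTAGAC (0.173%) or the CAGA box CAGACA (17.2%). No matches overlapped, and a match is not a bound site.

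The first question was how urethras given MABsallo differed from those given saline at 3d. Tgfbr2, the receptor that binds the ligand, was higher, and Tgfb3 and Ltbp4 were lower. A differentially expressed gene (DEG) had to pass both a limit of 0.05 on the adjusted p and a limit of 1, up or down, on the log2 fold change (limma on log2(normalized count + 1), adjusted over 16287 genes). By this rule 3 of the 10 members were DEGs, 1 higher and 2 lower, where 12.3% of all genes tested were DEGs, 9.4% higher and 2.86% lower. The median log2 fold change was -0.30 over the members and 0.07 over all genes. Without the libraries that stood apart 5 members were DEGs, 1 higher and 4 lower, where 18.1% of all genes were, 13.8% higher and 4.36% lower.

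**Figure D1:**
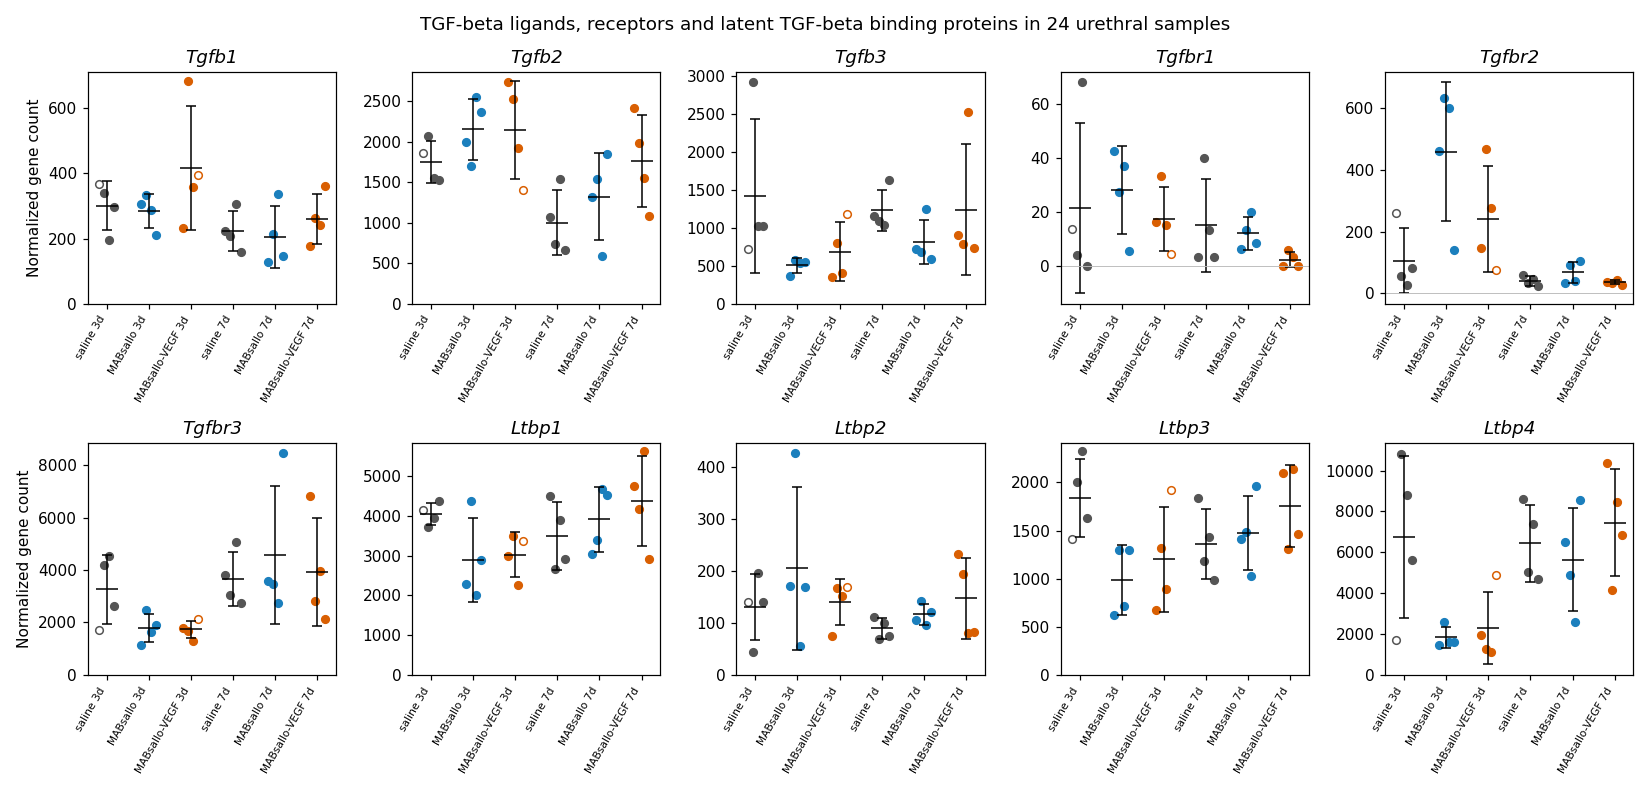
Normalized gene count (linear vertical axis) of each member in the 24 samples by group, with points for samples, a horizontal bar for the mean and whiskers for the SD (n = 4); open circles mark saline replicate 6 and MABsallo-VEGF replicate 4 at 3d. Tgfbr2 is at 141 to 635 in MABsallo at 3d, and Ltbp4 there is at 1477 to 2604.

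Among the ligands, Tgfb3 was at 716, 2924, 1022 and 1017 normalized counts in the saline samples at 3d. After MABsallo it was at 362, 579.9, 535 and 553. All 4 MABsallo samples lay below all 4 saline samples. The log2 fold change was -1.28 (SE 0.42, adjusted p = 0.0434, limma), and -1.53 (SE 0.42, adjusted p = 0.0111) without the libraries that stood apart. Saline replicate 8 was far above the rest of its group, and without it the log2 change was -0.86 with an adjusted p of 0.208 (limma). The call of Tgfb3 was also lost when any 1 of the other compared samples but saline replicate 6 was left out, with adjusted p from 0.0522 to 0.126.

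Tgfb1, the ligand best known from wound repair, was at 368, 341, 197 and 296 in saline and at 305, 334, 286 and 212 in MABsallo at 3d. The groups overlapped, with a log2 difference of -0.06 (95% interval -0.77 to 0.65). Tgfb2, which depends on the co-receptor encoded by Tgfbr3 for strong binding, was at 1863, 2069.6, 1551 and 1534 in saline and at 2002, 1707, 2557 and 2365 in MABsallo. Its log2 difference was 0.29 (95% interval -0.37 to 0.95), so neither of these ligands passed the test while Tgfb3 did. Whether the ligands differed from each other in their change was not tested.

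Among the receptors, Tgfbr2 was at 262, 54.9, 28.6 and 80.9 in saline and at 462, 635, 600.1 and 141 in MABsallo at 3d. The groups overlapped through saline replicate 6, the library that stood apart, which held 262. The log2 fold change of 2.37 (SE 0.63, adjusted p = 0.0175, limma) became 2.95 (SE 0.56, adjusted p = 0.000955) in 22 samples. In the 24 samples the call was lost without saline replicate 8 or 9 or MABsallo replicate 1 or 3. In the 22 samples it was kept in each of the 7 fits that left out another compared sample. Tgfbr2 was counted from 8 to 76 reads in the saline samples and from 26 to 116 in the MABsallo samples.

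Tgfbr3 encodes betaglycan, which presents ligand to the kinase receptors. It was at 1711, 4206, 4521 and 2636 in saline and at 1150.2, 2462, 1634 and 1920.4 in MABsallo at 3d. Its log2 difference was -0.82 (SE 0.37, adjusted p = 0.127, limma), and without saline replicate 6 the groups did not overlap. In the fit of 22 samples Tgfbr3 was a DEG, with a log2 fold change of -1.09 (SE 0.38, adjusted p = 0.0404). Leaving out saline replicate 8 or 9 or MABsallo replicate 1 or 3 as well ended this call, with log2 values from -1.34 to -0.90 over the 7 samples left out in turn.

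Tgfbr1, the receptor that carries the signal inwards, was counted from few reads, 0 to 19 per sample in saline and 1 to 6 in MABsallo at 3d. It was at 13.8, 3.92, 67.9 and 0 in saline and at 42.6, 27.4, 36.9 and 5.42 in MABsallo. The difference was not resolved in this fit, where the 95% interval ran from -0.73 to 3.68 on the log2 scale.

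Among the latency proteins, Ltbp4, which also takes part in elastic fibre assembly, was at 1708, 10826, 8824 and 5645 in saline and at 1477, 2604, 1625 and 1627 in MABsallo at 3d. MABsallo replicate 2 lay above the rest of its group, and saline replicate 6 lay within the MABsallo range while the other saline samples were above it. The log2 fold change was -1.62 (SE 0.49, adjusted p = 0.0296, limma), and -2.19 (SE 0.37, adjusted p = 0.000333) in 22 samples. In the 24 samples this call was lost without saline replicate 8, 9 or 10 or MABsallo replicate 1 or 3. In the 22 samples it was kept in each of 7 fits with another sample left out.

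Ltbp3, a further carrier of the latent complex, was at 1412, 1999, 2323 and 1626 in saline and at 618, 1302, 720.1 and 1302 in MABsallo at 3d, without overlap. Its log2 fold change of -0.95 (SE 0.31) had an adjusted p of 0.0396 (limma) and fell just short of the fold set for a DEG. In the fit of 22 samples it was -1.07 (SE 0.30, adjusted p = 0.0148) and a DEG, a call lost when saline replicate 8 or 9 or MABsallo replicate 1 or 3 was left out as well, with log2 values from -1.23 to -0.88.

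Ltbp1 was at 4159.5, 3712, 3953 and 4385 in saline and at 2300.4, 4382, 2022 and 2881 in MABsallo at 3d. Only MABsallo replicate 2 reached the saline range. The log2 difference of -0.55 (SE 0.24) had an adjusted p of 0.121 (limma). Ltbp2, the family member that does not bind the latent complex, was at 141, 43.1, 197 and 141 in saline and at 170.4, 427, 55.4 and 168 in MABsallo, with a log2 difference of 0.50 (95% interval -0.58 to 1.58).

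In the 24 samples Tgfb3 and Ltbp3 were the members without overlap between MABsallo and saline at 3d, which held for 14.7% of all genes. Among 22 samples 5 members did not overlap, against 28.0% of all genes. Leaving out 1 sample at a time from the 24 gave 0 to 5 members called. None was called without saline replicate 8, saline replicate 9, MABsallo replicate 1 or MABsallo replicate 3, 1 without saline replicate 10 and 5 without saline replicate 6. The total over all genes moved too, with 2816 called without saline replicate 6 against 1997 in the fit of 24 samples. A fit of the compared groups alone called none of the members and 11 genes in all. It had 5 members at an unadjusted p below 0.05, and the share of all genes at that limit is not given here. Over 17 fits of this comparison (the one reported, 8 other settings and 8 with a sample left out) the sign did not change for Tgfbr2 (log2 1.90 to 2.95), Tgfb3 (-1.60 to -0.86) or Ltbp4 (-2.19 to -1.30), which were called 12, 8 and 11 times.

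The scaling of the libraries moved all genes together. The median log2 fold change over all genes was 0.07 with the authors' size factors, -0.14 after quantile normalization and -0.19 when every sample was set to the same total. With the same total 5 members were called, 1 higher and 4 lower, and the DEGs over all genes split into 1109 higher and 1021 lower in place of 1531 higher and 466 lower.

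Markers of other cell types moved in the same samples. The summed fibroblast markers (6 genes) ranged from 342793 to 517564 normalized counts in saline and from 56304 to 304450.4 in MABsallo at 3d, and 2 of the 6 were called lower, 5 of 6 in the fit of 22 samples. The summed endothelial markers (5 genes) ranged from 4931 to 8658 and from 2989 to 4705, with 1 of 5 called lower. Macrophage markers (8 genes) ranged from 11694 to 22326 and from 1420.0 to 12457, with 4 of 8 called lower, and none of these 3 lists had a marker at 0. Mast cell markers (6 genes) ranged from 589 to 2207 and from 235 to 376, with 5 of 6 called lower and up to 4 of 6 at 0 in a MABsallo sample. Striated muscle had 2 of 5 and epithelium 1 of 7 markers called higher, but the sums of both lists overlapped. Striated sums ranged from 41936 to 168791 in saline and from 75574 to 339416 in MABsallo. Epithelial sums ranged from 2081 to 62252 and from 32342 to 108305. In MABsallo-VEGF at 3d the fibroblast and endothelial sums ranged from 96516 to 642551 and from 2548 to 6651. The macrophage and mast cell sums there ranged from 4250.0 to 18352 and from 178 to 642. No marker of these 4 lists was called there in 24 samples. The part of all these markers in the change of Tgfb3, Tgfbr2, Ltbp3 and Ltbp4 was not tested. In whole urethra fewer cells of a type and less RNA per cell cannot be told apart.

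The same question was asked of MABsallo-VEGF, against the same saline samples. None of the 10 members was a DEG in the 24 samples, where 0.0307% of all genes were (5 of 16287). An unadjusted p below 0.05 was found for 5 members, whose adjusted p ran from 0.124 to 0.258 (limma). With adjusted values of this size many other genes also lay below the unadjusted limit, so this count is not read as a result about the members. edgeR likewise called 0 members and DESeq2 called 1, Ltbp4, and the totals over all genes of these fits are not given here. Without the libraries that stood apart 5 members were DEGs, 1 higher and 4 lower, where 13.6% of all genes were, 11.4% higher and 2.19% lower. Only Ltbp1 did not overlap between MABsallo-VEGF and saline in the 24 samples, against 4.0% of all genes, and 6 members did not in the 22, against 33.1%.

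**Figure D2:**
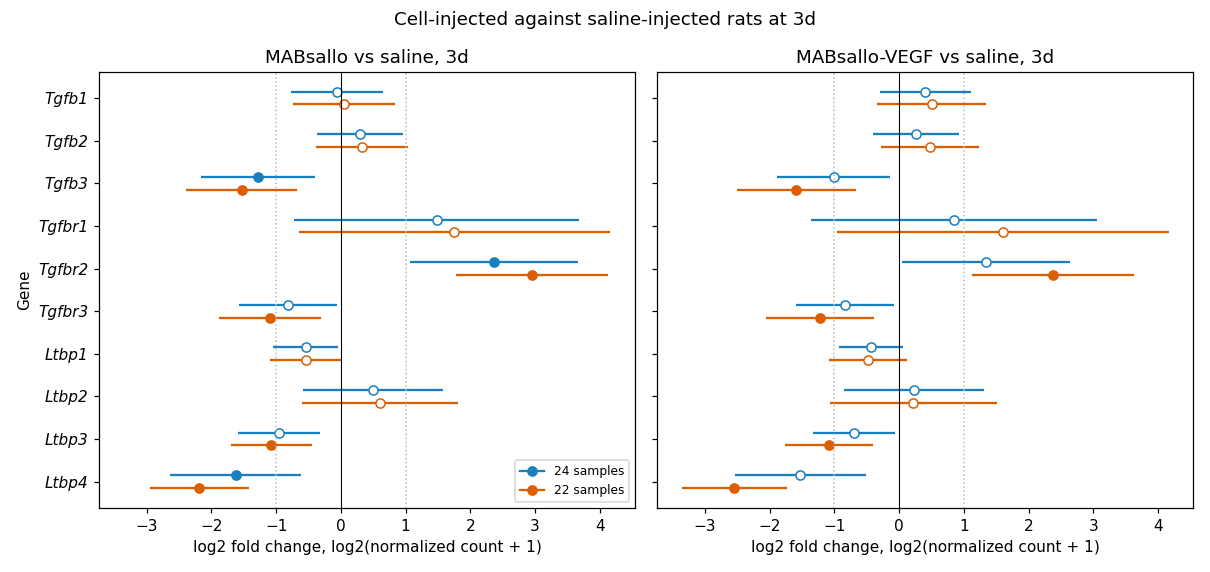
Log2 fold change of each member (horizontal axis, on log2(normalized count + 1)) for MABsallo vs saline and MABsallo-VEGF vs saline at 3d, in 24 samples (blue) and 22 samples (orange), with 95% intervals from limma; filled points are DEGs and dotted lines mark the fold set for them. Both comparisons share the saline samples, and in 22 samples Ltbp4 is at -2.19 and -2.55.

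Ltbp4 was at 1947, 1258, 1105 and 4893 in MABsallo-VEGF at 3d, against the 1708, 10826, 8824 and 5645 of saline. Replicate 6 of saline, at 1708, made the groups overlap. Replicate 4 of MABsallo-VEGF, at 4893, was the highest of its group and below the other saline samples. The log2 difference was -1.53 (SE 0.49, adjusted p = 0.124, limma) with both of these libraries and -2.55 (SE 0.39, adjusted p = 0.000295) without them. In the fit of 22 samples this call was kept in each of the 6 fits that left out another sample of the compared groups, with log2 values from -2.81 to -2.34.

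Tgfbr2 was at 146, 467, 277 and 75.7 in MABsallo-VEGF at 3d, overlapping with saline through both libraries that stood apart. The log2 difference was 1.34 (SE 0.63, adjusted p = 0.258, limma) in 24 samples and 2.38 (SE 0.60, adjusted p = 0.00945) in 22, where leaving out MABsallo-VEGF replicate 2 ended the call at 1.98.

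Tgfb3 was at 346, 800.1, 404 and 1184 in MABsallo-VEGF at 3d. Only replicates 1 and 3 were below all saline samples. The log2 difference was -1.01 (SE 0.42, adjusted p = 0.206, limma) in 24 samples and -1.59 (SE 0.44, adjusted p = 0.0177) in 22, a call that leaving out saline replicate 8 or MABsallo-VEGF replicate 1 or 3 ended.

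Tgfbr3 was at 1801, 1692, 1307 and 2133 and Ltbp3 at 676, 1317, 893 and 1919 in MABsallo-VEGF at 3d. In 22 samples both lay below the saline range, with log2 fold changes of -1.22 (SE 0.40, adjusted p = 0.0422, limma) for Tgfbr3 and -1.08 (SE 0.33, adjusted p = 0.0265) for Ltbp3. In 24 samples both were short of the threshold, at -0.83 (adjusted p = 0.229) and -0.70 (adjusted p = 0.229). Of the 6 fits that left out another sample from the 22, 1 kept the call of Tgfbr3 and 2 kept that of Ltbp3.

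Tgfb1 was at 233, 683, 358 and 396 and Tgfb2 at 2741, 2534, 1927 and 1407 in MABsallo-VEGF at 3d. Both overlapped with saline, with log2 differences of 0.41 (95% interval -0.30 to 1.11) and 0.26 (95% interval -0.40 to 0.92). Ltbp1 was at 2996, 3500.5, 2260.2 and 3362, below the saline range of 3712 to 4385, with a log2 difference of -0.44 (SE 0.24, adjusted p = 0.351, limma). Ltbp2 was at 75.7, 167, 151 and 169 and Tgfbr1 at 16.2, 33.3, 15.1 and 4.45, and both overlapped with saline.

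Whether overexpression of VEGF by the injected cells made a difference was asked by comparing MABsallo-VEGF with MABsallo. At 3d none of the members was a DEG (0.00614% of all genes, 1 of 16287, and 0.0184% in 22 samples), and none had an unadjusted p below 0.05. edgeR and DESeq2 also called 0 members. The interval for Tgfbr2 ran from -2.32 to 0.27 on the log2 scale (difference -1.02), and that for Ltbp4 from -0.92 to 1.11 (difference 0.10). Differences of these sizes were thus not resolved with 4 samples a group, and the result does not show that the cells acted alike.

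At 7d the members of cell-injected and saline-injected rats overlapped throughout, where 4.87% of all genes did not for MABsallo and 6.04% did not for MABsallo-VEGF. No member and no gene was a DEG in MABsallo vs saline (0%), MABsallo-VEGF vs saline (0%) or MABsallo-VEGF vs MABsallo (0%). An unadjusted p below 0.05 was found for 0, 1 and 1 members, respectively, and for 1014, 1033 and 452 of all genes. edgeR called no gene in these comparisons, and DESeq2 called 0, 29 and 4 genes, of which 0 were members.

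Tgfb2 had the lowest p of MABsallo-VEGF vs saline at 7d. It was at 1065, 732, 1544 and 663 in saline and at 2416, 1991, 1558 and 1084 in MABsallo-VEGF, with 1313, 1543, 586 and 1855 in MABsallo. The log2 difference from saline was 0.84 (SE 0.32) with an adjusted p of 0.708 (limma), and the groups overlapped.

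Tgfbr1 was at 0, 5.71, 3.10 and 0 in MABsallo-VEGF at 7d, from 0 to 2 reads, which is at the limit of detection of 3 reads in each sample. It was at 3.38, 39.8, 13.4 and 3.14 in saline at 7d. In saline these were 1, 16, 4 and 1 reads, and in MABsallo it was counted from 2, 4, 12 and 2 reads (mean 11.9 normalized counts, SD 6.14). In both groups 2 of the 4 samples were thus under the limit of 3 reads themselves, and no difference of Tgfbr1 is read from these counts.

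Ltbp4 at 7d was at 8605, 5041, 7375 and 4710.4 in saline, at 6514, 4894, 2576 and 8566 in MABsallo and at 10360.3, 4159, 8459.6 and 6834 in MABsallo-VEGF. The 3 groups covered much the same range. Tgfbr2 was at 60.9, 32.4, 46.9 and 25.2 in saline, at 34.1, 92.7, 41.7 and 104 in MABsallo and at 36.3, 34.2, 43.4 and 28.4 in MABsallo-VEGF, again with overlap. Tgfb3 ranged from 1038 to 1632 in saline, from 593 to 1248 in MABsallo and from 738 to 2526 in MABsallo-VEGF.

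Tgfbr3 ranged from 2745 to 5071 in saline, from 2757 to 8483 in MABsallo and from 2131 to 6823 in MABsallo-VEGF at 7d. Ltbp3 ranged from 981 to 1833, from 1026 to 1967 and from 1312 to 2138 in the same order. Ltbp1 ranged from 2658 to 4509, from 3051 to 4691 and from 2922 to 5645. Tgfb1 at 127 to 363 and Ltbp2 at 69.7 to 232 also overlapped between the 3 groups.

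The change with time was compared within each treatment, 3d against 7d. In rats given saline no member was a DEG, where 3.19% of all genes were, and 1 member, Tgfb2, had an unadjusted p below 0.05. edgeR and DESeq2 called 0 members as well, of 988 and 1387 genes called in all. In the fit of 22 samples none was called, where 0.19% of all genes were. Tgfb2 was higher at 3d by 0.88 on the log2 scale (SE 0.32), with an adjusted p of 0.124 (limma).

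In rats given MABsallo 3 members were DEGs between 3d and 7d, 1 higher and 2 lower at 3d, where 23.0% of all genes were, 17.0% higher and 6.05% lower. The fit of 22 samples called 3 members too (23.7% of all genes, 17.5% higher and 6.22% lower). Tgfbr2 was higher at 3d by 2.68 (SE 0.63, adjusted p = 0.00253, limma), and no MABsallo sample at 7d reached the lowest at 3d. Tgfbr3 (log2 -1.26, SE 0.37, adjusted p = 0.0117) and Ltbp4 (log2 -1.53, SE 0.49, adjusted p = 0.0206) were lower. Tgfbr2 was called in all 17 fits of the 24 samples. Tgfbr3 lost the call without MABsallo replicate 13 at 7d (adjusted p = 0.0627), and Ltbp4 lost it without that sample (0.0761), without replicate 7.2 at 7d (0.0547) or without replicate 1 at 3d (0.0543). In the same comparison 6 of 6 adipocyte markers were lower at 3d (summed level 575 to 3261 normalized counts against 2434 to 73547, up to 4 of 6 at 0 at 3d), as were 5 of 6 mast cell, 3 of 8 macrophage, 3 of 6 smooth muscle and 1 of 6 fibroblast markers. Their part in the change of Tgfbr2, Tgfbr3 and Ltbp4 was not tested.

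In rats given MABsallo-VEGF 3 members were DEGs as well, where 15.3% of all genes were, 13.1% higher and 2.24% lower at 3d. Tgfbr2 was higher at 3d by 2.44 (SE 0.63, adjusted p = 0.00811, limma), while Tgfbr3 (log2 -1.07, SE 0.37, adjusted p = 0.0421) and Ltbp4 (log2 -1.89, SE 0.49, adjusted p = 0.00855) were lower. In the 17 fits Tgfbr2 and Ltbp4 were called 17 times each and Tgfbr3 10 times. Without MABsallo-VEGF replicate 4 and saline replicate 6, 5 members were called, 2 higher and 3 lower (20.3% of all genes, 16.6% higher and 3.72% lower). In these samples 4 of 4 red cell markers and the smooth muscle marker Acta2 were lower at 3d, and 0 of 6 adipocyte markers were called. The part of such markers in the change of the members was not tested. Added in the fit of 22 samples were Tgfb3 at -1.15 (SE 0.42, adjusted p = 0.0446, limma) and Tgfbr1 at 3.21 (SE 1.16, adjusted p = 0.0442). The fitted value of Tgfbr1 depends on the pseudocount of 1 because Tgfbr1 was at the limit of detection at 7d. Of 7 fits with another sample left out, 3 kept the call of Tgfb3, 3 that of Tgfbr3 and 1 that of Tgfbr1.

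**Figure D3:**
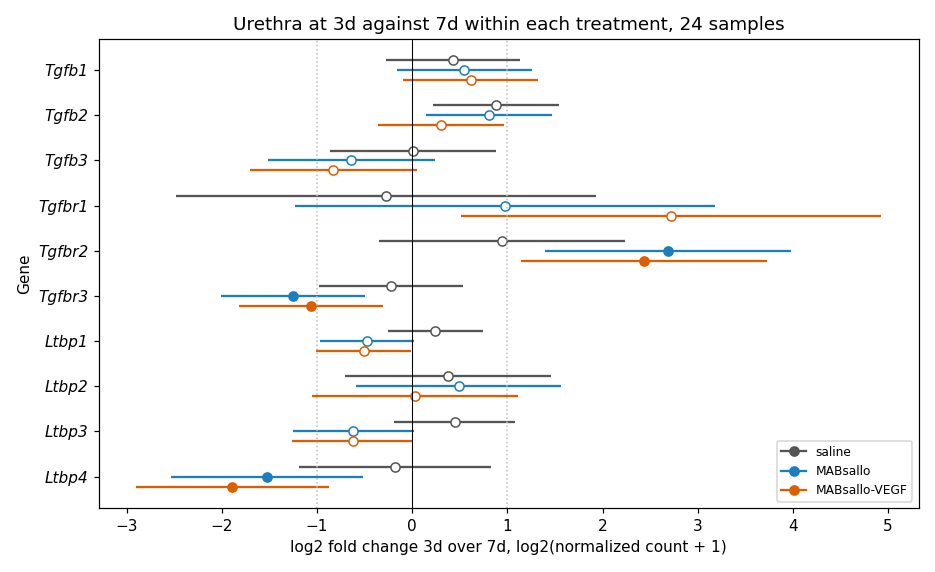
Log2 fold change of 3d over 7d (horizontal axis, on log2(normalized count + 1)) of each member after saline (grey), MABsallo (blue) and MABsallo-VEGF (orange), with 95% intervals from limma in 24 samples; filled points are DEGs and dotted lines mark the fold set for them. Tgfbr2, Tgfbr3 and Ltbp4 have filled points after both cell injections, and no member has one after saline.

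That a member was called after cells and not after saline does not show that the courses differed, and the difference itself was tested as an interaction. In the 24 samples no member and no gene passed for either cell type (0% and 0%), with 2 members for MABsallo and 3 for MABsallo-VEGF at an unadjusted p below 0.05, against 2212 and 1341 of all genes. edgeR called 0 members and 0 genes, and DESeq2 called 0 members and 89 and 1 genes. In the 24 samples the interaction of Ltbp4 was -1.35 (SE 0.69, adjusted p = 0.386, limma) for MABsallo and -1.71 (SE 0.69, adjusted p = 0.551) for MABsallo-VEGF. In the 22 samples Ltbp4 alone among the members passed in both. Its effect of MABsallo was lower at 3d than at 7d (log2 difference -1.91, SE 0.50, adjusted p = 0.0365, limma), where 3.56% of all genes passed, 3.02% higher and 0.534% lower. Its effect of MABsallo-VEGF was lower too (-2.73, SE 0.52, adjusted p = 0.00951), where 3.59% passed, 3.16% higher and 0.436% lower. With another of the 22 samples left out, Ltbp4 was called in 7 of 15 fits for MABsallo and in 14 of 14 for MABsallo-VEGF. The interaction of Tgfbr2 in 22 samples was 2.33 (adjusted p = 0.0948) and 2.53 (adjusted p = 0.0811), respectively.

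Ordered by their group means, Tgfb3, Tgfbr3, Ltbp1, Ltbp3 and Ltbp4 were lowest in the MABsallo and MABsallo-VEGF groups at 3d. Ltbp4 had means of 1833 (SD 519, n = 4) and 2301 (SD 1767) there and between 5637 and 7453 in the other groups. Tgfbr2 had its highest means in the same groups, 459 (SD 225) and 241 (SD 172), and between 35.6 and 107 in the others. Each group overlapped with its neighbour in this order for 9 of the 10 members. For Tgfbr1 the highest MABsallo-VEGF sample and the lowest MABsallo sample at 7d both held 2 reads, so that no gap is read there either.

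**Figure D4:**
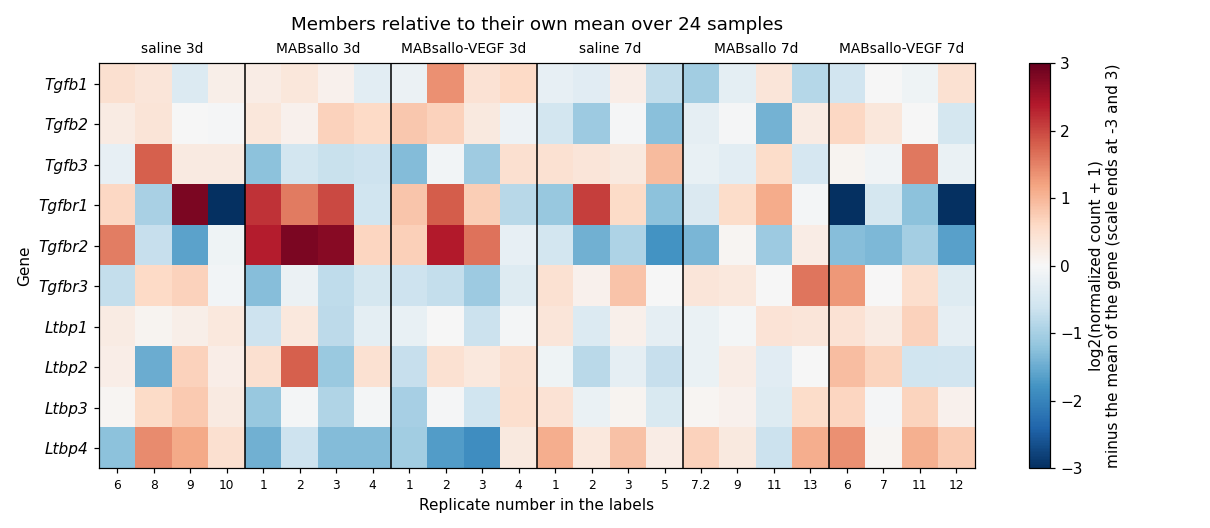
Colour map of log2(normalized count + 1) of each member minus its mean over the 24 samples, with genes as rows and samples as columns in their 6 groups, labelled with the replicate number; red is above and blue below the mean, and the colour scale ends at -3 and 3. Ltbp4 is blue and Tgfbr2 red in MABsallo at 3d, and saline replicate 6 at 3d shows the same pair of colours.

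Across the 24 samples the genes most like Ltbp4 were Itm2c (Pearson r = 0.94), Laptm4a (0.93) and Gsn (0.92). Those most like Ltbp3 were Bgn (0.92), Serpinf1 (0.92) and Chpf (0.91), and those most like Tgfb3 were Calm2 (0.89), Camk1 (0.88) and Slc17a9 (0.88). Tgfbr2 was most like Tmx1 (0.95) and Jak1 (0.94), and Tgfbr3 most like Nptxr (0.90), Ramp1 (0.89) and Csgalnact2 (0.89). Among the members Ltbp4 went with Tgfbr3 (0.86) and Ltbp3 (0.77), and against Tgfbr2 (-0.77). The 24 points share their groups and libraries, so these values describe likeness over the groups and carry no test.

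Other genes of the pathway were read from 3 lists. Of 18 extracellular partners and activators, 2 were higher and 4 lower in MABsallo vs saline at 3d, where 9.4% of all genes were higher and 2.86% lower. The list had a median log2 fold change of -0.54. Thbs1, whose product releases latent TGF-beta, was at 179 to 2046 normalized counts in MABsallo and at 3.52 to 789 in saline (log2 5.05, SE 1.33, adjusted p = 0.0175, limma). The saline samples held 1 to 229 reads with a median of 5.53 normalized counts, and the 789 was replicate 6, which stood apart. With so few reads in the rest its fitted value depends on the pseudocount of 1. Itgav, the alpha-v integrin subunit that activates the complex, was higher by 2.39 (SE 0.81, adjusted p = 0.0476). It was at 86.8 to 388 in MABsallo and at 7.84 to 169 in saline, with overlap. The saline samples held 2 to 49 reads of it, and the 169 was replicate 6. Lrrc32 and Nrros, which hold latent TGF-beta at cell surfaces, were lower, at log2 -1.77 (SE 0.53, adjusted p = 0.0296) and -1.38 (SE 0.40, adjusted p = 0.0248). The matrix proteoglycans Bgn and Dcn, which bind TGF-beta, were lower, at log2 -1.74 (SE 0.40, adjusted p = 0.00984) and -1.29 (SE 0.42, adjusted p = 0.0426). Dcn is also among the fibroblast markers.

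Of 20 genes of intracellular signalling that could be tested, 6 were higher and 0 lower, with a list median of 0.56, where 9.4% of all genes were higher and 2.86% lower. Smad4, the partner shared by all receptor-driven SMADs, was at 168 to 406 in MABsallo and at 3.92 to 93.0 in saline (log2 4.19, SE 0.91, adjusted p = 0.00838, limma). The saline samples held 1 to 27 reads of it with a median of 12.5 normalized counts, and the 93.0 was replicate 6. The fitted value of Smad4 thus depends on the pseudocount of 1 as well. The others were Ppm1a, a phosphatase of SMADs, the SMAD repressors Ski and Skil, the SMAD anchor Zfyve9 and the inhibitor Smad7. Ski was higher by 3.81 (SE 0.87, adjusted p = 0.0100, limma) and Smad7 by 1.63 (SE 0.49, adjusted p = 0.0296). Ski was counted from 1 to 95 reads in saline, the 95 being in replicate 6. The list thus holds both carriers and inhibitors of the signal among its called genes.

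Of 15 feedback genes and targets that could be tested, 0 were higher and 1 was lower, against 9.4% and 2.86% of all genes. The list median was -0.58. The gene called was Tgfbi, a matrix protein induced by TGF-beta, at 1136 to 3633 in MABsallo and 4775 to 24462 in saline (log2 -1.98, SE 0.50, adjusted p = 0.0147, limma). In 22 samples the counts for MABsallo vs saline were 2 higher and 5 lower of 18, 7 higher and 1 lower of 20, and 0 higher and 3 lower of 15. All genes in that fit were 13.8% higher and 4.36% lower. For MABsallo-VEGF vs saline no gene of the 3 lists was called in 24 samples. In 22 samples 2 were higher and 2 lower of 18, 7 higher and 0 lower of 20, and 0 of 15. The shares of all genes there were 11.4% higher and 2.19% lower.

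Between 3d and 7d the intracellular list had 9 of 20 genes higher at 3d and 0 lower after MABsallo, and likewise 9 and 0 after MABsallo-VEGF, while 0 were called after saline. Of all genes 17.0% were higher and 6.05% lower at 3d after MABsallo, and 13.1% and 2.24% after MABsallo-VEGF. After saline 3.19% of all genes were DEGs. The extracellular list had 4 higher and 3 lower after MABsallo, 3 higher and 1 lower after MABsallo-VEGF, and 1 lower after saline, the epithelial integrin subunit Itgb6. Of the targets, Acta2 was lower at 3d after saline (log2 -1.94, SE 0.43, adjusted p = 0.0184, limma), after MABsallo (-1.94, SE 0.43, adjusted p = 0.00169) and after MABsallo-VEGF (-1.40, SE 0.43, adjusted p = 0.0233). Acta2 is also a smooth muscle marker. In the fit of 22 samples the calls after saline were lost for Acta2 (-1.97, adjusted p = 0.0659) and Itgb6 (-1.59, adjusted p = 0.105). Timp1 was lower at 3d after MABsallo, at log2 -2.08 (SE 0.67, adjusted p = 0.0213). None of the 3 lists had a called gene in a comparison of treatments at 7d, where no gene was called at all.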

How the data were processed

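The authors prepared 3′ mRNA libraries (QuantSeq) from urethral RNA, used fastq-mcf for trimming, HISAT2 for alignment (Rnor6.0, reads with several positions discarded) and HT-seq Count for counting, and divided by DESeq2 size factors. The deposited signal is this normalized gene count, for 32883 genes in 24 samples. All values (100%) were whole multiples of 1 read (tolerance 0.001), and reads were recovered from them. Groups and replicate numbers came from the labels, which give no batch; the design assigns 24 separate rats, and 36 pairs of replicates differed beyond counting noise (chi-square per degree of freedom 9.0 to 121.4).

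The test was limma's two-sided moderated test with a mean trend (limma 3.58.1 under R 4.3.3), in 1 fit of 6 groups to log2(normalized count + 1), on 16287 genes with a mean of at least 2, with Benjamini-Hochberg adjustment; a fold change on this scale understates low genes. Intervals are 95%. edgeR 4.0.16 and DESeq2 1.42.0 were run on the recovered reads. On simulated counts with known changes limma, edgeR and DESeq2 were also run. The simulated counts held no libraries that stood apart, so this run does not cover that feature of the data. Alternatives were another pseudocount (5), no filter, a filter at 10, quantile normalization, only the groups compared, samples left out and a replicate block; the same total, and edgeR and further samples left out among the 22, were added after seeing the data. The members and lists were chosen with earlier results of these data known. All members are named, and of each list up to 6 called genes with the largest changes. Col1a2, Myh1, Myh2 and Pecam1 of the lists were not analysed here. Only promoters were read from RefSeq (GRCr8). Some genes that this rule names are not reported here.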

Additional observations from a re-analysis of the deposited data

Results flagged for a closer look

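In 4 of 60 sets of 4 samples (10 members, 6 groups) 1 sample lay far from the rest by Dixon's test, where chance gives about 1 in 20. Tgfb3 was at 2924 in saline replicate 8 at 3d against 716 to 1022, and at 2526 in MABsallo-VEGF replicate 11 at 7d against 738 to 903. Tgfbr3 was at 8483 in MABsallo replicate 13 at 7d against 2757 to 3593, and without this sample its difference between 3d and 7d after MABsallo was no longer a DEG. Ltbp4 was at 2604 in MABsallo replicate 2 at 3d against 1477 to 1627. The interaction of Ltbp4 between days passed the test in 22 samples, at -1.91 for MABsallo (adjusted p = 0.0365, limma) and -2.73 for MABsallo-VEGF (adjusted p = 0.00951). In 24 samples it was -1.35 and -1.71, in the same direction and past no threshold after adjustment (adjusted p = 0.386 and 0.551).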

How the results depend on the processing

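Of the 11 comparisons, 6 gave the same number of members within 1.5 times under the alternatives run. In MABsallo vs saline at 3d the count of 3 became 5 with the same total in every sample, 5 in 22 samples with limma, edgeR or the same total, and 0 with the compared groups alone; it ran from 0 to 5 over samples left out in turn. In MABsallo-VEGF vs saline at 3d the count of 0 became 1 with DESeq2 and 5 in 22 samples with limma, edgeR or the same total, and ran from 0 to 1 over samples left out. In MABsallo-VEGF 3d vs 7d the count of 3 became 5 in 22 samples with each of the 3. The interactions went from 0 to 1 in 22 samples with limma and edgeR and to 2 with the same total, for both cell types. In 22 samples limma also called more of all genes, 18.1% in place of 12.3% in MABsallo vs saline at 3d. This share was 13.6% in place of 0.0307% in MABsallo-VEGF vs saline at 3d. It was 20.3% in place of 15.3% in MABsallo-VEGF 3d vs 7d, and 3.56% and 3.59% in place of 0% for the interactions. No called member reversed. The cause was not tested. MABsallo and MABsallo-VEGF at 3d share replicate numbers 1 to 4 on different rats. Deviations of same-numbered samples correlated by 0.22, 0.15, 0.073 and 0.25, so the numbers were not taken as pairs, and the replicate block also gave 0 members. Depth limits Tgfbr1 most, at 0 to 19 reads.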

Other observations

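Within MABsallo-VEGF at 7d, Ltbp2 was at 232 and 194 normalized counts in the samples with the label recovery (replicates 6 and 7) and at 80.7 and 82.0 in the other samples. Tgfb2 was at 2416 and 1991 in these and at 1558 and 1084 in the others. With 2 samples on each side no test was made.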
